A study of Mus musculus with 12 samples.

Results

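The comparison described here is the knockdown of Puf60 in the mEx5 line of N2A cells, a mouse neuroblastoma line, against a control siRNA in the same line. Its members were chosen by title: 2 libraries labelled mEx5.siPuf60 (A and B) and 2 labelled mEx5.siNTC (A and B), 4 of the 12 libraries of the series. The knockdown cells were transfected with 15 nM of an siRNA for Puf60, and the control cells with 15 nM of a non-targeting siRNA. Both groups received fresh medium without doxycycline after 24 h and were harvested 48 h after transfection. All 4 libraries come from cells with a Flp-In, rtTA3-driven, siRNA-resistant and N-terminally 3xFlag-tagged Puf60 cDNA that lacks exon 5. That cDNA was not induced in these libraries, and every cell also kept its own Puf60 gene. The design text calls A and B biological duplicates, the labels do not say that they came from separate cultures or transfections, and p-values therefore measure the spread between these samples. The labels also do not say whether the line is 1 clone, so the values are those of this line.

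Puf60 is an RNA-binding protein of the spliceosome that is related to the large subunit of U2AF. It binds pyrimidine-rich stretches near 3′ splice sites and helps the U2 small nuclear ribonucleoprotein to be recruited to the branch point. Loss of such a factor can lead to skipping of an exon, retention of an intron or use of another 3′ splice site. Microexons are exons of a few nucleotides, many of which are included mainly in neurons.

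Puf60 itself was checked in every library. Its exon-exon junction reads, scaled to library size (CPM), were 75.2 and 71.8 in the knockdown libraries, against 302.7 and 304.7 CPM in the control libraries. The groups did not overlap, and the log2 change was -2.05 ± 0.06 (SE; limma on 12 libraries, Benjamini-Hochberg adjusted p = 1.04e-14). In the authors' deposited table Puf60 had 25.2 RPKM in the knockdown group and 103.5 RPKM in the control group, as a single value for each group. Exon 5 of the remaining Puf60 transcripts, 51 nt long and at chr15:75905037-75905087 in the deposited coordinates, was included less often. Its percent spliced in (PSI) was 26.1 and 22.8 in the knockdown libraries, against 40.8 and 39.2 in the control libraries, a difference of -15.6 points (adjusted p = 0.00308). In the pEx5 line the difference was -15.9 points. The mEx5 cDNA lacks this exon, so any reads from it count as skipping, and their part in the difference was not tested. Another tested event of Puf60, an alternative 3′ site of 3 nt, had PSI of 91.5 and 83.8 in knockdown and of 90.7 and 90.0 in control libraries and did not pass the test (adjusted p = 0.754).

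The sequences below are shown because they carry the main observations. The first pair is the stretch of Puf60 that the mutagenesis primers of the labels changed to make the cDNA resistant to the siRNA, with the endogenous coding sequence of transcript Puf60-201 (GENCODE M21, positions 1623 to 1677). Capitals mark the 7 bases that differ.
Puf60 siRNA-resistant cDNA: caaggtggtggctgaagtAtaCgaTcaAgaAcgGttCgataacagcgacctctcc
Puf60 endogenous transcript: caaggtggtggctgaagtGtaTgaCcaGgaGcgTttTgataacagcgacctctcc
The next lines show exons with a large change, in capitals, with 20 nt of the neighbouring exons in lower case, read from GENCODE M21 transcripts of GRCm38. The first of them are 6 coding microexons with lower PSI after knockdown.
Nbea microexon: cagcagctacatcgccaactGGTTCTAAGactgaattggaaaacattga
Lphn1 microexon: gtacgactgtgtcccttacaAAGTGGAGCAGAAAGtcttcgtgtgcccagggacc
Fryl microexon: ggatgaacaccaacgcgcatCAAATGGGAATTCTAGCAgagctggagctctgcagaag
Ncor1 microexon: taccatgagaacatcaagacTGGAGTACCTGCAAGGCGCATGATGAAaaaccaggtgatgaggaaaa
Snx14 microexon: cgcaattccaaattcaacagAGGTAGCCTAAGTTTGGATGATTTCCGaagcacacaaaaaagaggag
Nrxn2 microexon: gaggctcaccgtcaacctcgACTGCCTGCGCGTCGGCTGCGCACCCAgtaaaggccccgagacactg
The following 3 exons show the longer class, with a skipped exon of Aldh6a1 and exons of Ogdh and Cacna1c that were used more after knockdown.
Aldh6a1 exon 3: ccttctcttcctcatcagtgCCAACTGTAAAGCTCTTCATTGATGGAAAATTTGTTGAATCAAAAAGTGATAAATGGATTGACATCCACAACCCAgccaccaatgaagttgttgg
Ogdh exon 4: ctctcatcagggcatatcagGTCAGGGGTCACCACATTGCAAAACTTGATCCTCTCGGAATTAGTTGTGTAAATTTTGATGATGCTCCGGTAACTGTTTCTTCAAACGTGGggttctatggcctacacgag
Cacna1c exon 30: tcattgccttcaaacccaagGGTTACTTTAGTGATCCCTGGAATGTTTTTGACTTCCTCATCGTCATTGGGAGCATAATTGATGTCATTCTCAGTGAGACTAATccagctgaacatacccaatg

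The 4 libraries held 26772242 to 32981590 exon-exon junction reads. Over the 22767 tested events, PSI of the knockdown libraries A and B differed by a median of 3.47 points, and PSI of the control libraries by 3.08 points. Of 10 neuroblastoma and neural markers, 9 reached 1 RPKM in the authors' deposited table, with a summed level of 966 RPKM in knockdown and 1087 RPKM in control cells. Markers of macrophages and epithelium summed to under 1 RPKM in both groups, and those of fibroblasts to 3.79 RPKM in knockdown and 1.41 RPKM in control cells. Those of oligodendrocytes summed to 4 RPKM in knockdown and 4.55 RPKM in control cells, with Mog and Sox10 at 0, and those of astrocytes to 2.4 RPKM in knockdown and 0.58 RPKM in control cells, with Gfap at 2.37 and 0.55 RPKM and Aldh1l1 at 0. The muscle list summed to 28.6 RPKM in knockdown and 27.5 RPKM in control cells, of which Myh3 made up 28.1 and 27.2 RPKM and Myog was at 0.

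Among the events tested after Puf60 knockdown, splicing shifted mainly towards exon skipping and, less often, intron retention. Events needed a mean PSI from 5 to 95 over all 12 libraries. Those near either end in control cells thus entered mainly where PSI moved away from that end. Control PSI was over 95 in 1685 of 8243 exons and under 5 in 1703 of 8862 introns. Directions and shares depend in part on this filter. With no filter on mean PSI, 1166 exons were called lower and 107 higher, and 192 introns higher and 34 lower. Of the 22767 events tested in 6929 genes, 2697 (11.8%) were called, with 702 (3.08%) higher and 1995 (8.76%) lower in the knockdown libraries. An event was called at an adjusted p under 0.05, in limma weighted by the reads of each event, together with a PSI difference of at least 10 points. The 2697 events lay in 1748 genes, and in each event the PSI of the knockdown libraries did not overlap that of the control libraries. The thresholds of the call nearly ensure this, so it adds no support, and its share over all tested events was not counted. Among exons of 28 nt or more 1919 of 8243 were called (23.3%): 1717 lower (20.8%) and 202 higher (2.45%). Among microexons of 3 to 27 nt, 98 of 281 were called (34.9%), 97 lower (34.5%) and 1 higher (0.356%). Introns went the other way, with 427 of 8862 called (4.82%), 363 of them more retained (4.10%) and 64 less retained (0.722%). Alternative 3′ splice sites were divided between directions, with 196 of 3019 called (6.49%), 96 higher (3.18%) and 100 lower (3.31%). Of 2362 alternative 5′ sites 57 were called (2.41%), of which 40 were higher (1.69%) and 17 lower (0.720%). Among all tested events 6414 had an unadjusted p under 0.05. Leaving out control library B lowered the total to 1646 called events, and leaving out any other of the 4 libraries left 1801 to 2037. The 702 higher events became 323 and the 1995 lower ones 1323 without control library B, and 354 to 485 higher and 1447 to 1552 lower without any other library. Without control library B, 1140 exons and 72 microexons were lower, 116 exons higher, 52 alternative 3′ sites higher and 64 lower, and 17 alternative 5′ sites higher and 8 lower. Leaving out any other library left 1251 to 1357 exons lower, 118 to 128 exons higher, 58 to 69 alternative 3′ sites higher and 58 to 63 lower, and 22 to 30 alternative 5′ sites higher and 7 to 9 lower. Where each gene gave only its event with the smallest p, an alternative chosen after seeing the data, 1707 were called, 1302 of them lower.

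**Figure D1:**
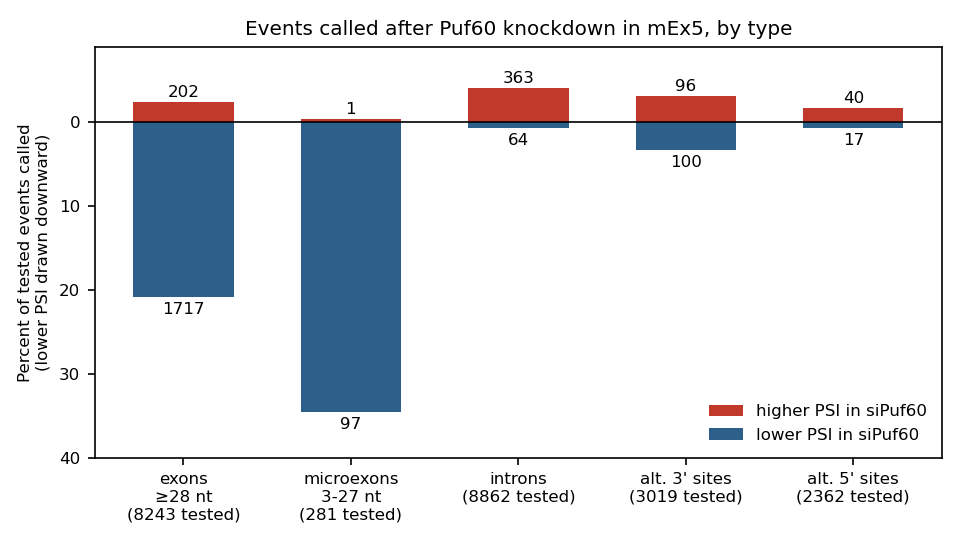
Share of tested events called after Puf60 knockdown in the mEx5 line, by event type, in percent; bars above 0 are events with higher PSI and bars below 0 those with lower PSI in siPuf60 than in siNTC libraries, with the number of events at each bar. Exons and microexons were called mostly lower (1717 and 97 events) and introns mostly higher (363 events). Directions and shares depend in part on the filter on mean PSI.

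The authors' deposited table of splicing calls marks 6959 events as changed in this comparison, with no stated criterion. Of the 2697 events called here, 2444 had a call in that table, and 2417 of these (98.9%) were marked there. In turn, 56.6% of the marked events among those tested were called here.

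The exons with the largest loss of inclusion were in genes of varied function, and most were nearly always included in the control libraries. Exon 11 of Atp8a1, a phospholipid flippase of membranes, is 166 nt long and lies at chr5:68158259-68158424. It had PSI of 29.7 and 26.9 in the knockdown libraries, against 97.2 and 93.3 in the control libraries, a difference of -66.9 points (adjusted p = 2.78e-05). Exon 12 of Syn2, which encodes the synaptic vesicle protein synapsin II, had PSI of 27.4 and 25.5 in knockdown, against 93.0 and 90.9 in control libraries (-65.5 points, adjusted p = 2.00e-05). In Mdm2, whose product ubiquitinates p53, exon 3 has 85 nt and holds the start of the coding sequence. Its PSI was 20.9 and 18.4 in knockdown, against 86.6 and 81.6 in control libraries, from 790 to 1127 reads a library (-64.4 points, adjusted p = 6.67e-07). In these 3 exons the replicates of a group were close and the groups far apart.

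Exon 3 of Aldh6a1, a mitochondrial dehydrogenase of valine breakdown, had PSI of 28.3 and 37.0 in knockdown, against 93.9 and 100 in control libraries (-64.3 points, adjusted p = 0.000412). An exon of 5730419I09Rik, annotated in GENCODE as C2cd5, had PSI of 14.4 and 16.7 in knockdown, against 84.2 and 72.3 in control libraries (-62.7 points, adjusted p = 0.000371). Exon 3 of Dclre1c, which encodes the DNA repair nuclease Artemis, had PSI of 28.6 and 32.3 in knockdown, against 100 and 85.7 in control libraries (-62.4 points, adjusted p = 0.00250). In the 5′ untranslated region of Zfp942, a zinc finger gene, an exon of 125 nt had PSI of 29.8 and 25.6 in knockdown, against 90.1 and 88.2 in control libraries (-61.5 points, adjusted p = 6.71e-06). The 84-nt exon of Zfp207, another zinc finger gene, rested on 29 to 51 reads a library and its knockdown libraries differed from each other. PSI was 43.7 and 20.1 in knockdown, against 93.3 and 100 in control libraries (-64.7 points, adjusted p = 0.0145). It lost its call without control library A (adjusted p = 0.0994) or B (adjusted p = 0.142), and the difference in the pEx5 line was -28.0 points.

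Far fewer exons were used more after knockdown, and the best covered of them was exon 4 of Ogdh. Ogdh encodes the E1 subunit of the 2-oxoglutarate dehydrogenase complex of the tricarboxylic acid cycle, and this exon, printed above, lies at chr11:6216768-6216858. It had PSI of 82.2 and 85.1 in knockdown, against 31.4 and 34.5 in control libraries, from 1620 to 2336 reads a library (50.7 points, adjusted p = 6.49e-07). Exon 2 of Slc8a1, a sodium-calcium exchanger, had PSI of 60.4 and 63.3 in knockdown, against 13.04 and 16.8 in control libraries (46.9 points, adjusted p = 0.000120). Exon 30 of Cacna1c, the pore subunit of the L-type calcium channel Cav1.2, had PSI of 87.4 and 88.6 in knockdown, against 52.5 and 46.3 in control libraries (38.6 points, adjusted p = 0.000938). An exon of 115 nt in the cytoskeletal adaptor gene Obsl1 had PSI of 81.8 and 82.7 in knockdown, against 41.8 and 40.3 in control libraries (41.2 points, adjusted p = 8.57e-05). The groups were well apart in these 4 exons.

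The remaining 2 named exons with higher PSI rested on few reads. An exon of Zfr2, which encodes a zinc finger RNA-binding protein, had PSI of 74.7 and 84.5 in knockdown, against 33.8 and 47.9 in control libraries, from 20 to 47 reads. It was called at an adjusted p of 0.0271 and lost the call when any 1 of the 4 libraries was left out, with adjusted p from 0.0675 without knockdown library A to 0.141 without control library A. The largest nominal gain, in the 303-nt exon of the endosomal adaptor gene Synrg, came from 22 to 31 reads a library. PSI was 100 and 54.9 in knockdown, against 13.1 and 38.5 in control libraries, and libraries of the same group lay far apart. Its adjusted p was 0.0406, no fit without 1 of these libraries called it (lowest adjusted p 0.101), and the difference in the pEx5 line was -24.1 points.

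Of the event types, microexons had the highest share called lower, a difference between types that was not tested. The 9-nt microexon of Nbea, which encodes the membrane traffic protein neurobeachin, had PSI of 24.1 and 17.2 in knockdown, against 91.8 and 87.9 in control libraries (-69.2 points, adjusted p = 2.76e-06). A 27-nt microexon of the synaptic adhesion gene Nrxn2 had PSI of 27.5 and 28.1 in knockdown, against 96.4 and 79.2 in control libraries (-60.0 points, adjusted p = 0.00218). The 6-nt microexon of Rundc1 had PSI of 39.6 and 36.4 in knockdown, against 95.7 and 97.2 in control libraries (-58.4 points, adjusted p = 0.000503). In each of these 3 the skipped form became the main form in the knockdown libraries.

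A 27-nt microexon of Snx14, a sorting nexin gene, had PSI of 31.1 and 24.2 in knockdown, against 83.1 and 81.0 in control libraries (-54.4 points, adjusted p = 0.000190). The 15-nt microexon of Lphn1, an adhesion receptor gene annotated in GENCODE as Adgrl1, had PSI of 19.6 and 20.0 in knockdown, against 70.4 and 63.6 in control libraries (-47.2 points, adjusted p = 6.25e-05). A 27-nt microexon of Ncor1, a corepressor of nuclear receptors, had PSI of 9.40 and 9.58 in knockdown, against 55.7 and 57.5 in control libraries (-47.1 points, adjusted p = 2.76e-06). Its replicates differed by under 2 points in both groups. A 3-nt microexon of the neural adhesion gene Ncam1 had PSI of 18.8 and 18.4 in knockdown, against 66.3 and 63.2 in control libraries (-46.2 points, adjusted p = 8.62e-06). The 18-nt microexon of Fryl had PSI of 20.7 and 31.2 in knockdown, against 68.5 and 63.4 in control libraries (-39.99 points, adjusted p = 0.00205). The single microexon with higher PSI was that of Cdk5rap2, a centrosomal gene, with 39.6 and 34.5 in knockdown, against 28.5 and 22.3 in control libraries (11.7 points, adjusted p = 0.0467). It lost the call without any 1 of the 4 libraries (adjusted p 0.0532 to 0.306) and differed by 3.41 points in the pEx5 line.

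Introns called higher had a median PSI, here the share of retained transcripts, of 27.3 in knockdown and 8.89 in control libraries. They numbered 363 in 308 genes. Their median length was 979 nt, and that of introns not called 638 nt. A 448-nt intron of Pnpla6, which encodes a phospholipase of the endoplasmic reticulum, had PSI of 77.5 and 68.3 in knockdown, against 13.9 and 12 in control libraries (59.9 points, adjusted p = 0.000545). A 104-nt intron of Polr3gl, an RNA polymerase III subunit gene, had PSI of 57.0 and 75.3 in knockdown, against 15.7 and 12.5 in control libraries (52.1 points, adjusted p = 0.00104). An intron of Pwwp2a, a chromatin reader gene, had PSI of 91.8 and 69.2 in knockdown, against 25.6 and 30.8 in control libraries, from 22 to 47 reads (52.4 points, adjusted p = 0.00419, and 0.0903 without knockdown library A). In Caskin1, a synaptic scaffold gene, an intron had PSI of 88.2 and 78.9 in knockdown and of 31.9 in each control library (51.7 points, adjusted p = 0.00427). The introns of Polr3gl, Pwwp2a and Caskin1 had smaller differences in the pEx5 line, of 14.4, 17.9 and 15.3 points, and were not called there. Introns of Plekha6 (48.5 points, adjusted p = 0.00217) and Ccdc45 (46.4 points, adjusted p = 0.0183) also rose. That of Ccdc45 lost the call without any 1 of the 4 libraries (limma, adjusted p 0.0595 to 0.112), and the reads on its exon-intron junctions were unequal (lowest balance p of the 4 libraries 2.52e-08). For Plekha6 that p was 0.0349.

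Among the 64 introns retained less were those of Tradd, an adaptor of the tumour necrosis factor receptor, and Carm1, an arginine methyltransferase. The intron of Tradd had PSI of 13.1 and 23.0 in knockdown, against 53.8 and 60.9 in control libraries (-39.3 points, adjusted p = 0.000357). The intron of Carm1 had PSI of 18 and 12.9 in knockdown, against 46.2 and 53.6 in control libraries (-34.5 points, adjusted p = 0.00183). The reads on the exon-intron junctions of both introns were unequal by the deposited balance test (lowest p of the 4 libraries 2.9e-10 for Tradd and 2.25e-07 for Carm1). An intron of 2610318N02Rik fell by 39.7 points (adjusted p = 0.00768, and 0.0616 without control library A). In Clcn4-2, a chloride transporter gene, the intron fell by 33.2 points (adjusted p = 0.0227), with no call once any 1 of the 4 libraries was left out (adjusted p 0.0658 to 0.156) and a lowest balance p of 0.0135. Without control library B 137 introns were called higher, without control library A 152, without knockdown library A 195 and without knockdown library B 258. The 64 introns called lower became 37 without knockdown library A, 39 without control library B, 40 without knockdown library B and 49 without control library A. Of the 363 higher introns 189, and of the 64 lower ones 32, had a deposited balance p of 0.05 or more in all 4 libraries. This means no detected inequality between the reads on both exon-intron junctions. Among introns not called the share was larger, 5592 of 8435, a difference that was not tested.

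Alternative 3′ splice sites changed in both directions with large sizes. In Ifi27l1, an interferon-inducible gene, the site that adds 60 nt had PSI of 27.2 and 25.4 in knockdown, against 84.2 and 83.5 in control libraries (-57.5 points, adjusted p = 8.94e-07). In the septin gene Sept8, use moved between sites of 1 event, with 277 to 485 reads a library. The site listed at 265 nt had PSI of 4.87 and 5.36 in knockdown, against 60.6 and 63.6 in control libraries (-57.0 points, adjusted p = 9.41e-07). The site listed at 445 nt had PSI of 89.6 and 88.7 in knockdown, against 37.9 and 34.7 in control libraries (52.8 points, adjusted p = 2.31e-06). These share their reads, so they are a single shift.

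In Rnf111, a ubiquitin ligase gene of the transforming growth factor beta pathway, a site that adds 27 nt had PSI of 59.2 and 68.1 in knockdown, against 4.29 and 5.21 in control libraries (58.9 points, adjusted p = 0.000246). It was almost unused in the control libraries and was the main site in the knockdown libraries. A site of Prepl, a peptidase gene, fell by 48.7 points (adjusted p = 7.30e-05), and a 3-nt site of Ncam1 fell by 44.4 points (adjusted p = 2.18e-05) to PSI of 18.1 and 20 in knockdown, against 65.2 and 61.7 in control libraries. These values are close to those of the 3-nt microexon of Ncam1 in each library. The deposited coordinates of the microexon place the first listed downstream neighbour before it (a distance of -5064 nt), so whether both entries describe the same 3 nt was not settled. A site of the kinetochore gene Cenpt rose by 40.9 points (adjusted p = 0.000389). A site of Zfp790 rose by 39.6 points (adjusted p = 0.00944, and 0.0624 without knockdown library A). Sites at most 3 nt apart were called in few cases, 4 lower and 5 higher of 973.

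The alternative 5′ site with the largest gain was in Dctn2, which encodes the dynactin subunit dynamitin. Its 3-nt site had PSI of 80.0 and 76.1 in knockdown, against 9.37 and 9.69 in control libraries (68.5 points, adjusted p = 6.82e-06). The event had 908 and 729 reads in knockdown, against 107 and 145 reads in control libraries. A 5-nt site of Cbx3, which encodes the heterochromatin protein HP1 gamma, had PSI of 71.0 and 79.0 in knockdown, against 32.04 and 24.97 in control libraries (46.5 points, adjusted p = 0.000285). A 9-nt site of the splicing regulator gene Hnrnph1 had PSI of 65.4 and 61.5 in knockdown, against 89.4 and 87.1 in control libraries, from 2143 to 3820 reads (-24.8 points, adjusted p = 6.82e-06). A site of Csnk2a1, the catalytic subunit of casein kinase 2, fell by 28.2 points (adjusted p = 0.000198). A 4-nt site of Ccdc45 rose by 59.4 points (adjusted p = 0.00960) and lost the call without control library A (0.0523) or B (0.0857). In Entpd4, a nucleotidase gene, the site of 19 nt rose and that of 43 nt fell by 44.5 points, again with shared reads, and the loss had an adjusted p of 0.0521 without control library B.

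**Figure D2:**
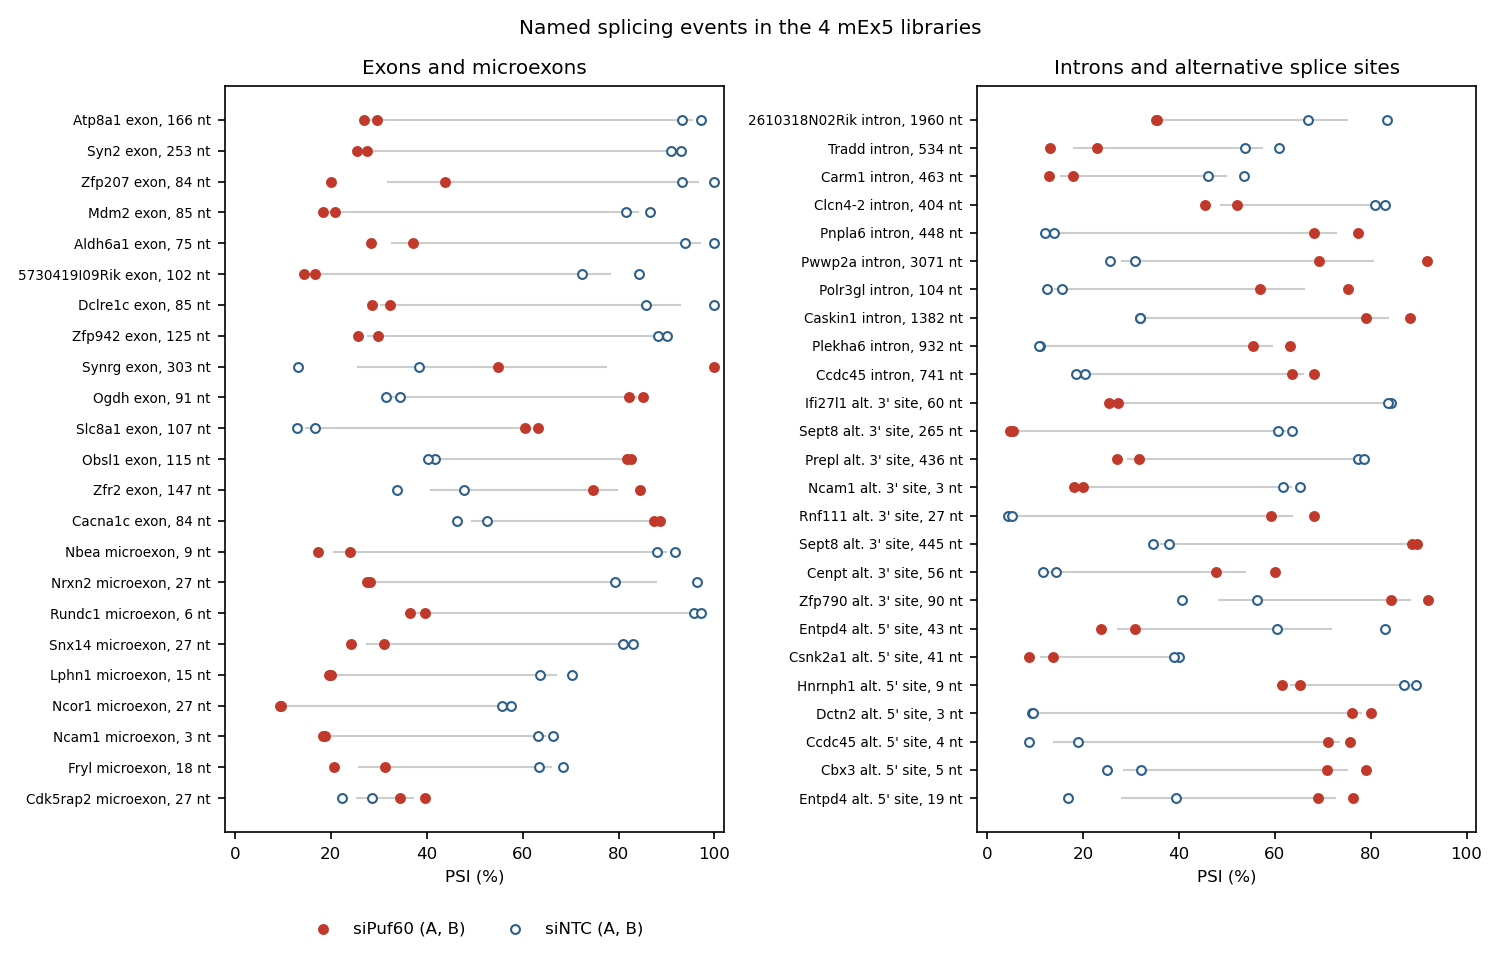
PSI in percent of the named splicing events in each mEx5 library; filled points are the siPuf60 libraries, open points the siNTC libraries, and the grey line joins the group means. The groups do not overlap in any event shown, which was a condition for naming an event. The Synrg and Cdk5rap2 exons have the nearest libraries of the 2 groups among the exons.

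Exons called lower differed in several features from tested exons that were not called. Their median length was 94 nt, while exons not called had 108 nt. The median upstream intron was 3086 nt for exons called lower and 2240 nt for exons not called. The share of tested exons called lower was 34.5% at 3 to 27 nt and 15.8% in the next to longest of the 6 length classes. By upstream intron it was 13.6% below 250 nt, 26.8% from 2000 to under 5000 nt and 20.4% at 10000 nt or more. By downstream intron it was 11.7% below 250 nt, 26.5% from 5000 to under 10000 nt and 17.9% at 10000 nt or more. Of the 8524 exons and microexons tested, 7035 (82.5%) were matched to a GENCODE exon by gene, exon length and neighbouring intron lengths, and 1581 of the 1814 called lower. The GC content of matched exons had a median of 46.8% in those called lower and 50.8% in those not called. The share called lower was 39.1% among exons under 35% GC and 11.6% among exons at 60% GC or more. A G as the first base of the exon, next to the 3′ splice site, was found in 38.0% of exons called lower and 44.6% of those not called. Of the 203 exons with higher PSI 158 had a match, with a median GC of 55.04% (quartiles 48.1% and 61.3%). The share called higher was 0.334% among exons under 35% GC and 4.96% among exons at 60% GC or more. A G as the first base was found in 43.7% of the exons with higher PSI. These features move together and were not separated, and the figures are descriptions with no test. The shares also depend in part on the filter on mean PSI.

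**Figure D3:**
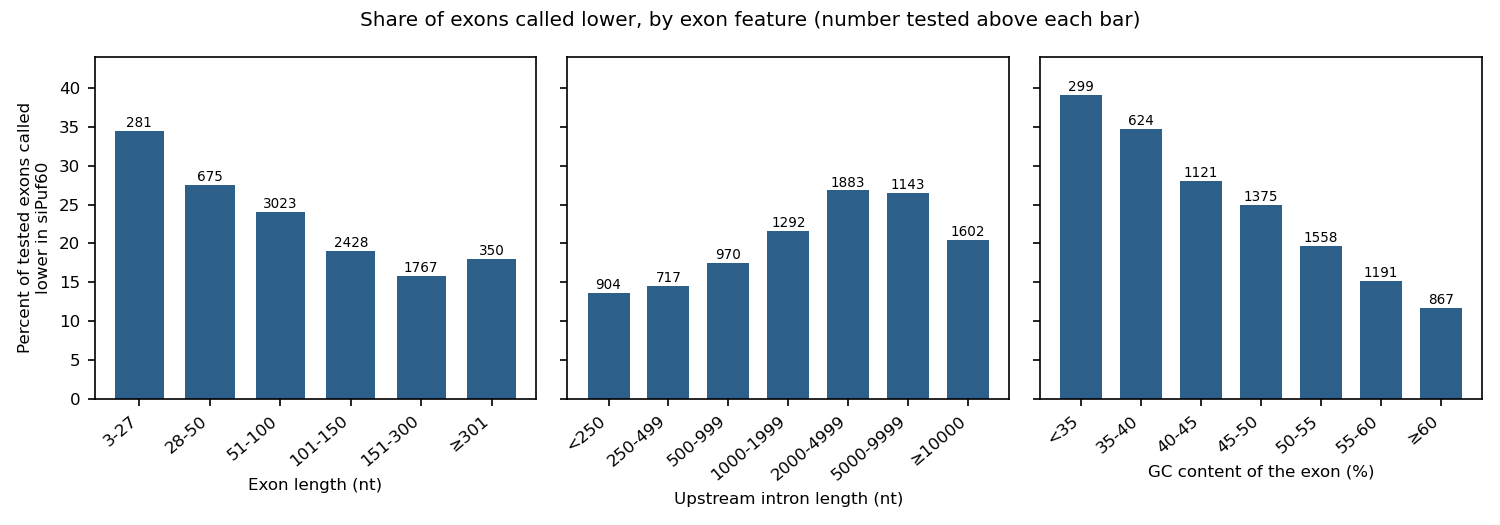
Share of tested exons and microexons called lower after knockdown, in percent, by exon length in nt, by length of the upstream intron in nt and by GC content of the matched exon in percent, with the number tested above each bar. The share is highest among the shortest exons (34.5%), among exons under 35% GC (39.1%) and behind upstream introns of 2000 to under 10000 nt (26.8% and 26.5%). Shares depend in part on the filter on mean PSI.

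Shares were also counted by the level in control cells. In the pEx5 control libraries, which this comparison does not use, exons called lower had a median PSI of 88.4 and exons called higher one of 48.6. Of exons with a PSI of 20 to under 40 there, 21.7% were called lower and 5.74% higher. At 40 to under 60 the shares were 28.4% lower and 7.36% higher, and at 80 to under 95 they were 20.2% lower and 0.802% higher. Events needed a mean PSI from 5 to 95 over the 12 libraries, so exons near either end in control cells entered mainly where PSI differed in other libraries. Shares at both ends, and in part both medians, depend on this filter, and the end classes are not given.

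Most genes had a single called event: 1192 of 1748, with 360 genes at 2 and 196 at 3 or more. Lower exons were called in 1265 genes and higher introns in 308, and 116 genes had both. Snap91, which encodes the clathrin adaptor AP180 of synaptic vesicle endocytosis, had 12 called events, 9 lower exons and 3 higher introns. Ttc3, a ubiquitin ligase gene, had 9 lower exons. Events of 1 gene can describe the same skipped stretch and are not independent.

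Some splicing factor genes had called events, at shares below, near and above the 11.8% of all events depending on the list, differences that were not tested. Of 17 genes of the list of U2 and 3′ splice site factors with tested events, 3 had a called one, and 3 of 54 events were called (5.56%). These were exon 5 of Puf60, a 76-nt exon of Sf1, the branch point binding protein, at 80.0 and 79.3 in knockdown and 92.1 and 92.4 in control libraries, and a 74-nt exon of Rbm5 (-10.3 points), which lost its call without control library B (adjusted p = 0.0872) or knockdown library A (0.0634). Among neural splicing regulators, 16 of 91 events were called (17.6%), in 9 of 19 genes with tested events. A 34-nt exon of Ptbp2, the neural polypyrimidine tract binding protein, had PSI of 45.7 and 33.5 in knockdown, against 83.5 and 84.5 in control libraries (-44.4 points). A 40-nt exon of Rbfox2 had PSI of 55.3 and 66.0 in knockdown, against 89.4 and 84.2 in control libraries (-26.2 points). A 12-nt alternative 3′ site of Celf1 fell by 37.4 points. In the SR protein list, 9 of 76 events were called (11.8%), among them exons of the kinase genes Clk1, Clk2, Clk3 and Clk4, all lower; the smaller of the Clk4 changes had an adjusted p of 0.0554 without knockdown library B. The Clk2 exon differed by -13.1 points in mEx5 but by -0.265 points in the pEx5 line, where it was not called. Its difference between lines did not pass the test (limma interaction, unadjusted p = 0.000756, adjusted p = 0.982). A 73-nt exon of Hnrnpa2b1 had PSI of 3.80 and 3.97 in knockdown, against 21.6 and 22.3 in control libraries (-18.1 points).

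Prpf39, which encodes a U1 associated protein, had 4 exons and 2 introns called, all lower in knockdown; 1 of the exons lost its call without control library A (adjusted p = 0.0530) or knockdown library A (0.0523). Its 347-nt exon had PSI of 63.3 and 65.2 in knockdown, against 95.7 and 95.4 in control libraries. In genes of S phase and DNA replication 7 events were lower and 1 higher of 48 tested (16.7%), in 5 of 19 genes with tested events. Among them were an exon of Mcm4 and several exons of Pola1. In primary cilium genes 10 were lower and 2 higher of 80 (15%), in 7 of 25 genes with tested events. Among them were several exons of Ift52 and exons of Arl13b. In axon and neuronal cytoskeleton genes 11 were lower and 4 higher of 65 (23.1%), in 6 of 11 genes with tested events. Among them were exons of L1cam and Ank3. The 138-nt exon of L1cam had PSI of 61.0 and 60.2 in knockdown and of 95.9 in each control library (-35.2 points). No event was called among 20 tested in genes of the unfolded protein response or among 14 in complex I genes.

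Gene levels changed in both directions. By the authors' deposited table, 5716 of 18600 genes (30.7%) had an adjusted p under 0.05, 2600 higher (14.0%) and 3116 lower (16.8%) in knockdown. Of these, 643 rose and 144 fell at least 2-fold by the deposited fold change, and at 1.5-fold the split was 1122 higher and 550 lower. That table gives a single RPKM for each group, so per-library values and errors here come from junction reads per gene. Skipping of an exon or retention of an intron can also change these reads, and that part was not tested. For Dnajc3 the log2 change was 0.47 on junction reads and 0.05 in the deposited table (deposited FDR 0.562). In limma on log2 CPM of junction reads 3717 of 10363 genes were called (35.9%), 1822 higher (17.6%) and 1895 lower (18.3%). The tests shared 3125 called genes, 3116 of them with the same sign. In RNA from whole cultures, fewer cells of a kind and less RNA per cell cannot be told apart.

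Besides Puf60, the lowest genes by the deposited fold change included genes of synaptic vesicle release. Vamp2, the vesicle SNARE synaptobrevin 2, had 7.32 and 4.05 CPM in knockdown, against 20.5 and 17.4 CPM in control libraries (log2 change -1.78 ± 0.18 SE, adjusted p = 2.93e-07). Sv2a, a vesicle glycoprotein gene, had 13.9 and 12.7 CPM in knockdown, against 44.9 and 38.4 CPM in control libraries (-1.64 ± 0.10, adjusted p = 2.18e-10). Both genes also had introns called higher, of 622 nt in Vamp2 (29.0 points) and of 384 nt in Sv2a (30.1 points). That of Sv2a lost its call without control library A (adjusted p = 0.0768) or knockdown library B (0.0810).

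Heatr3, which takes part in nuclear import of 5S ribonucleoprotein components, had 60.4 and 57.1 CPM in knockdown, against 200.6 and 187.1 CPM in control libraries (-1.72 ± 0.06, adjusted p = 8.73e-14). Ptbp2 had 36.6 and 35.3 CPM in knockdown, against 117.9 and 118.0 CPM in control libraries (-1.71 ± 0.07, adjusted p = 4.94e-12). Agtpbp1, a tubulin deglutamylase gene, had 31.7 and 31.5 CPM in knockdown, against 94.1 and 90.6 CPM in control libraries (-1.55 ± 0.06, adjusted p = 2.82e-12). Replicates of these 3 genes lay close to each other and the groups far apart. Oip5, a centromere gene (-1.59 ± 0.10), and Tmem175, a lysosomal ion channel gene (-1.50 ± 0.17), fell with adjusted p of 1.01e-09 and 1.35e-06. Defb30, a defensin gene, was at 0.578 and 0.736 CPM in knockdown, against 1.71 and 1.63 CPM in control libraries. Its adjusted p of 0.00757 became 0.0517 without control library A and 0.0572 without knockdown library A.

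The highest genes by the deposited fold change were mostly expressed at low levels in control cells. Myl9, a regulatory myosin light chain of smooth muscle and non-muscle cells, was the most abundant, with 52.8 and 54.96 CPM in knockdown, against 11.6 and 12.3 CPM in control libraries (2.17 ± 0.13, adjusted p = 3.28e-10). Galnt3, an enzyme that starts O-glycans, had 28.7 and 32.8 CPM in knockdown, against 11.6 and 9.46 CPM in control libraries (1.54 ± 0.11, adjusted p = 3.12e-09). Car6, a secreted carbonic anhydrase gene, had 13.7 and 14.1 CPM in knockdown, against 3.42 and 5.14 CPM in control libraries (1.71 ± 0.17, adjusted p = 2.12e-07). Slamf9, an immunoglobulin superfamily gene, had 9.03 and 11.7 CPM in knockdown, against 2.12 and 2.60 CPM in control libraries (2.10 ± 0.21, adjusted p = 2.92e-07).

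Cyp2c65, a cytochrome P450 gene, had the largest deposited change at a log2 of 3.22, with 2.96 and 2.32 CPM in knockdown and 0.260 and 0.393 CPM in control libraries. Ccnb1ip1, a ubiquitin ligase gene known from meiosis, rose by 2.12 ± 0.20 and H2-DMa, of antigen presentation, by 1.74 ± 0.21 on the log2 scale. The cornified envelope genes Cdsn (2.20 ± 0.29) and Sprr2f (1.85 ± 0.44) rose as well, with Cdsn at 2.18 and 2.36 CPM in knockdown, against 0.409 and 0.483 CPM in control libraries. Fam46d, a poly(A) polymerase family gene, had 1.19 and 1.21 CPM in knockdown, against 0.223 and 0.755 CPM in control libraries, and control replicates differed more from each other than in the other named genes. Its adjusted p of 0.0170 became 0.318 without control library A, 0.0519 without knockdown library A and 0.0582 without knockdown library B.

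**Figure D4:**
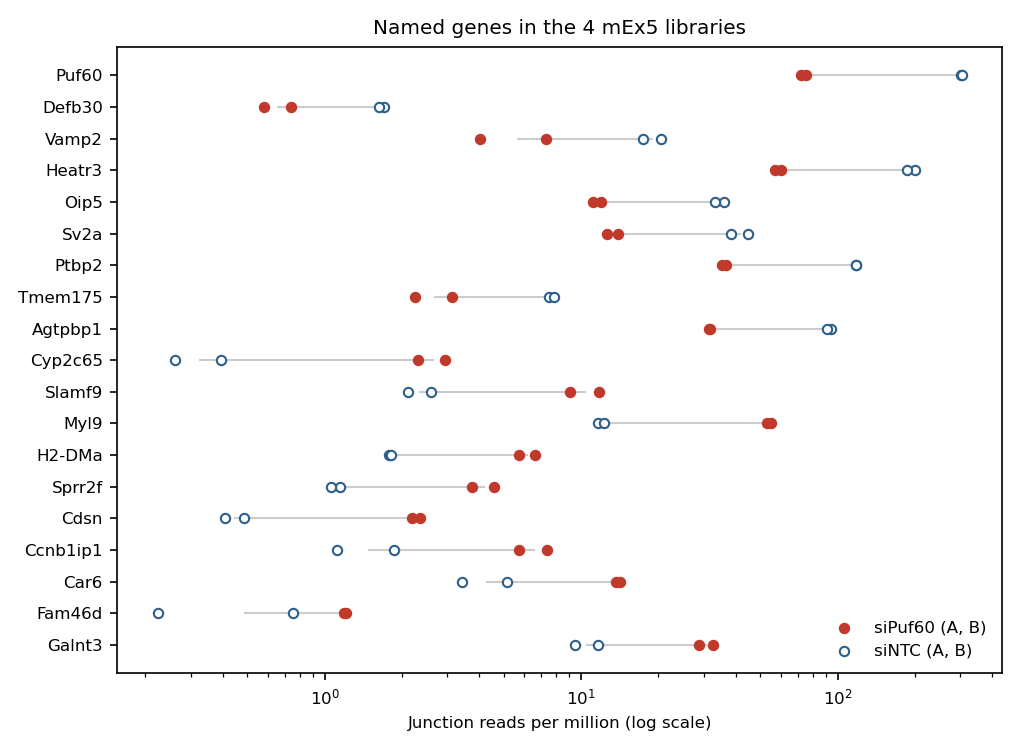
Junction reads of a gene scaled to library size (CPM), on a log axis, of Puf60 and the genes named by the deposited fold change; filled points are the siPuf60 libraries and open points the siNTC libraries of the mEx5 line. Puf60 and the 8 genes under it are lower, and the 10 genes from Cyp2c65 to Galnt3 higher, in both siPuf60 libraries.

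Genes of the integrated stress response, which slows translation and raises amino acid supply under stress, were mostly higher. Of 30 measured members 25 were higher and 2 lower, against 17.6% higher and 18.3% lower among all genes, and their median log2 change was 0.37, against 0.01 over all genes. Trib3, a pseudokinase, had 66.1 and 69.0 CPM in knockdown, against 29.0 and 27.7 CPM in control libraries. Ddit3, which encodes the transcription factor CHOP, had 91.8 and 96.0 CPM in knockdown, against 46.8 and 46.4 CPM in control libraries (1.01 ± 0.07). Nupr1, a stress-induced nuclear protein gene, had 63.4 and 69.8 CPM in knockdown, against 31.8 and 31.9 CPM in control libraries (1.06 ± 0.09). Slc7a11, the cystine transporter, had 21.6 and 24.6 CPM in knockdown, against 8.89 and 10.1 CPM in control libraries (1.28 ± 0.11). The members that were lower were Slc3a2 and Psat1. A 48-nt exon in the 5′ untranslated region of Ddit3 had PSI of 46.6 and 45.3 in knockdown, against 84.3 and 82.7 in control libraries.

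Genes of the unfolded protein response, which expands folding capacity in the endoplasmic reticulum, had 17 of 24 members higher and 0 lower, with a median log2 change of 0.28. The sensors Atf6 (0.64 ± 0.07) and Ern1 (0.56 ± 0.08) and the degradation factor Herpud1 (0.58 ± 0.05) rose. By the authors' deposited table, 14 members were higher and 1 lower. Of NRF2 and glutathione genes, which serve antioxidant defence, 15 of 25 were higher and 1 lower, with a median of 0.31. Hmox1, heme oxygenase 1, had 325.2 and 369.3 CPM in knockdown, against 139.1 and 150.6 CPM in control libraries (1.26 ± 0.06). Ptgr1 rose by 1.62 ± 0.09, and Abcc1, a glutathione conjugate exporter, was the lower member (-0.69). Of heat shock chaperones 5 of 12 were higher and 0 lower on junction reads, among them Hsph1 and Chordc1 (0.28 each). In the authors' deposited values 3 of 17 members were higher and 1 lower, with a median log2 change of 0.06. The higher call of Hspb8 was lost without any 1 of the 4 libraries. That of Dnajb1 was lost without control library B or knockdown library B, and its deposited log2 change was 0.09 (deposited FDR 0.271).

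Genes of S phase and DNA replication went the other way: 28 of 38 were lower and 0 higher, with a median log2 change of -0.26. E2f1, a transcription factor of S phase entry, had 26.1 and 31.4 CPM in knockdown, against 60.5 and 55.8 CPM in control libraries (-1.02 ± 0.10). Mcm6 (-0.65 ± 0.05), of the replicative helicase, Cdc45 (-0.64 ± 0.06), its partner, and Prim2 (-0.58 ± 0.07), of primase, also fell. Of mitosis and G2/M genes 11 of 28 were lower and 2 higher, with a median of -0.09, led by the checkpoint kinases Ttk (-0.45 ± 0.06) and Bub1 (-0.34 ± 0.05). Of p53 targets and regulators 5 of 18 were higher and 1 lower, a share called of 33.3%, against 35.9% of all genes. Cdkn1a, the cell cycle inhibitor p21, had 36.3 and 41.0 CPM in knockdown, against 27.4 and 27.1 CPM in control libraries (0.50 ± 0.08). Mdm2, whose exon 3 was skipped, had a log2 change of -0.02 and was not called. Of cholesterol synthesis genes 8 of 20 were lower and 0 higher, among them Insig1 (-0.53 ± 0.13), a regulator of sterol sensing, which lost its call without control library A (adjusted p = 0.0715).

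Among the factors of U2 and the 3′ splice site, 8 of 25 genes were higher and 7, with Puf60, lower. Ddx46, the helicase that acts with U2 at the branch point, had 577.5 and 563.0 CPM in knockdown, against 289.4 and 304.6 CPM in control libraries (0.94 ± 0.05). Dnajc8 (-0.68 ± 0.07) and Rbm5 (-0.51 ± 0.05) fell. The median over the list was 0.04. Of hnRNP genes 9 of 16 were lower and 1 higher, with a median of -0.16. Hnrnpc had 133.5 and 121.3 CPM in knockdown, against 212.7 and 214.9 CPM in control libraries (-0.75 ± 0.08), and Hnrnpa2b1 fell by 0.47 ± 0.06. Of neural splicing regulators 11 of 22 were lower and 2 higher, with Ptbp2, Elavl2 (-0.80 ± 0.07) and Elavl4 (-0.66 ± 0.06) the lowest in junction reads beside Rbm4 (-0.67 ± 0.11). Of SR proteins and their kinases 7 of 19 were lower, such as Clk1 (-0.71 ± 0.06), and 3 higher. One of these, Srsf12, had 93 to 136 CPM of junction reads but 0.01 and 0 RPKM in the authors' deposited table, so the reads under this symbol are uncertain. Among U1 and core Sm proteins 3 of 12 were higher, led by Prpf39 (0.81 ± 0.07), and 2 lower. By the authors' deposited table, 1 of 16 members was higher and 5 were lower. There Prpf39 was at 0.53 and Tia1, also called higher on junction reads, at 0.02 (deposited FDR 0.926). Of nonsense-mediated decay factors 3 of 14 were higher, with Smg6 at 65.8 and 66.7 CPM in knockdown, against 31.6 and 38.0 CPM in control libraries (0.93 ± 0.08), and 3 lower, with Nbas the lowest (-0.69 ± 0.07). On junction reads 41.7% of the U1 and Sm list and 42.9% of the decay list were called, against 35.9% of all genes. These differences were not tested.

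Of synaptic vesicle and SNARE genes 13 of 33 were lower and 6 higher, with a median of -0.16. Beside the low members given above, Syn2 rose, with 92.1 and 97.8 CPM in knockdown, against 46.8 and 47.1 CPM in control libraries (1.01 ± 0.06), while its exon 12 was skipped. Of axon and neuronal cytoskeleton genes 6 of 23 were lower, such as Mapt, which encodes tau (-0.60 ± 0.06), and 4 higher, such as Stmn4 (0.70 ± 0.08). Of noradrenergic identity genes 4 of 16 were lower, among them Chga (-0.78 ± 0.06), and 2 higher, among them Gata3 (1.08 ± 0.13). The shares called were 43.5% in the axon and cytoskeleton list and 37.5% in the noradrenergic list. The share over all genes was 35.9%, and the differences from it were not tested. Of primary cilium genes 13 of 28 were lower and 3 higher. Ift88 (-0.88 ± 0.11) and Ift20 (-0.85 ± 0.08), of intraflagellar transport, and Pcm1 (-0.62 ± 0.05), of centriolar satellites, fell.

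Of smooth muscle and serum response factor genes 9 of 21 were higher and 3 lower, with a median of 0.12. Next to Myl9, Acta2, smooth muscle actin, had 19.8 and 25.4 CPM in knockdown, against 8.85 and 10.1 CPM in control libraries (1.24 ± 0.27). Flna, filamin A, rose by 0.48 ± 0.05. Itga5 was called higher on junction reads (1.40 ± 0.43). In the authors' deposited table its log2 fold change was 0.99 with an FDR of 0.0247, while the RPKM in the same table was 0.64 in knockdown and 1.09 in control cells. Its adjusted p of 0.0157 became 0.0913 without knockdown library A and 0.0947 without control library B. The fibroblast markers given above were also higher in sum, with Pdgfra at 3.17 RPKM in knockdown and 1.13 RPKM in control cells, Col3a1 at 0 in both and Lum at 0 and 0.02 RPKM; their part in this list's change was not tested. Of interferon and RNA sensor genes 9 of 16 were higher and 1 lower, with Nmi at 15.3 and 13.8 CPM in knockdown, against 5.91 and 7.64 CPM in control libraries (1.10 ± 0.16). The lower member was Dhx58, another RNA sensor gene (-0.90), which lost the call without control library A (adjusted p = 0.184) or knockdown library A (0.319). Isg15 (0.52 ± 0.18) and Ddx58 (0.61 ± 0.18) were called at low levels. For Ddx58 the deposited log2 fold change was 0.55, while the deposited RPKM was 1.73 in knockdown and 1.8 in control cells. Isg15 lost the call without control library A (adjusted p = 0.230) or knockdown library B (0.188), and Ddx58 without control library A (0.0657), control library B (0.0582) or knockdown library A (0.135). Ribosome biogenesis genes were split, 9 of 29 higher and 7 lower, Heatr3 being the lowest. Of complex I subunits 23 of 30 were not called; Ndufs1, the largest subunit, fell, with 284.1 and 309.7 CPM in knockdown, against 499.1 and 483.8 CPM in control libraries (-0.73 ± 0.05).

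**Figure D5:**
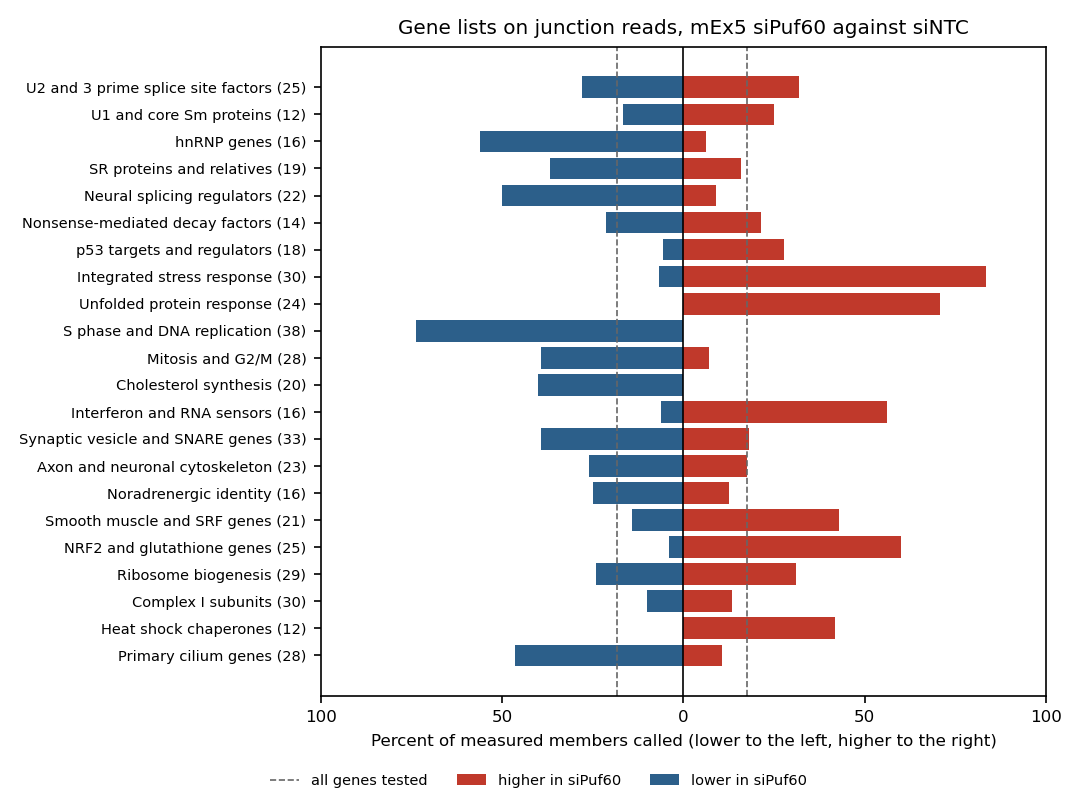
Share of the measured members of each gene list that were called on junction reads, in percent, with lower in siPuf60 drawn to the left and higher to the right; the number measured is in brackets and the dashed lines give the shares over all 10363 genes tested (18.3% lower, 17.6% higher). Integrated stress response genes extend furthest to the right (25 of 30) and S phase genes furthest to the left (28 of 38).

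Levels were then read beside splicing. Skipping a coding exon whose length is not divisible by 3 shifts the reading frame. Of 526 genes in which only exons of such lengths were called lower, 48.1% were lower in the authors' deposited table and 10.6% higher. Of 550 genes that lost only exons divisible by 3, 36.2% were lower and 11.5% higher. Both counts include exons outside coding sequence. For lost coding exons, 52.0% of 373 genes were lower with lengths not divisible by 3, and 37.9% of 451 with lengths divisible by 3. Where the coding exon fell by 30 points or more, the shares were closer, 51.7% of 60 genes and 44.2% of 104. Among 4948 genes with tested events and none called, 25.5% were lower and 15.8% higher. Of 298 genes with a more retained intron, 51.3% were lower, against 19.3% of 57 genes with a less retained one. These shares are counts over genes and the differences between them were not tested.

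The genes with the largest fall among those with a frame-shifting lost exon were Heatr3, Ptbp2, Agtpbp1, Pts, Tmem65 and Mbtps1. In Agtpbp1 a 38-nt exon had PSI of 43.6 and 30.1 in knockdown, against 90.7 and 91.1 in control libraries. In Mbtps1, which encodes the site-1 protease, a 103-nt exon had a mean PSI of 58.6 in knockdown, against 98.4 in control libraries, and the gene fell to 174.7 and 172.7 CPM, against 406.9 and 402.1 CPM in control libraries (-1.22 ± 0.05, adjusted p = 1.44e-12). Pts, of tetrahydrobiopterin synthesis, lost a 23-nt exon (PSI of 66.6 in knockdown, against 97.6 in control libraries) and fell by 1.52 ± 0.08. In Heatr3 the lost share was smaller, an 89-nt exon at 85.1 and 85.5 in knockdown, against 99.6 and 97.7 in control libraries. Other genes rose while losing such an exon: Slc7a11 (127 nt), Syn2 (253 nt), Cth (58 nt) and Aldh1l2 (235 nt). The exon of Slc7a11 lost its call without control library A (adjusted p = 0.0986) or B (0.0957). In Aldh1l2, a mitochondrial folate enzyme gene, the exon had a mean PSI of 75.7 in knockdown, against 98.9 in control libraries, and the gene had 221.4 and 220.7 CPM, against 118.6 and 127.0 CPM in control libraries (0.85 ± 0.05, adjusted p = 4.36e-10).

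The mEx5 knockdown was set beside the knockdown in the pEx5 line, which has its own control libraries. Of the 2697 events called in mEx5, 2662 (98.7%) had the same sign in pEx5 and 2050 were also called there, of 3197 called in that line. Their median size was 18.4 points in mEx5 and 17.0 points in pEx5. These events were chosen by their p and size in mEx5, which favours the mEx5 median, so the medians do not compare the lines. Puf60 itself had a log2 change of -2.05 in mEx5 and -2.33 in pEx5 (limma interaction, unadjusted p = 0.00288, adjusted p = 0.482). No event passed the test of the difference between lines (limma interaction, smallest adjusted p = 0.982; 1079 events with an unadjusted p under 0.05), and no other fit that was run called one. The smallest unadjusted p among events called in mEx5 was for an intron of Pcsk4, a proprotein convertase gene. Its PSI was 76.9 and 88.7 in mEx5 knockdown, against 100 and 95 in mEx5 control libraries, and 95.2 and 98.0 in pEx5 knockdown, against 84.5 and 84.2 in pEx5 control libraries, and its mEx5 call was lost without control library A (adjusted p = 0.216), control library B (0.149) or knockdown library A (0.216). A 148-nt exon of Stk19 had PSI of 35.7 and 43.4 in mEx5 knockdown, against 63.3 and 66.1 in mEx5 control libraries, and 58.8 and 54.8 in pEx5 knockdown, against 58.0 and 61.8 in pEx5 control libraries.

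In gene levels 3670 of 3717 genes called in mEx5 had the same sign in pEx5. The difference between lines passed the test for 3 genes (0.0289% of 10363; 555 with an unadjusted p under 0.05). Cth, the cystathionine gamma-lyase of cysteine synthesis, had 110.8 and 113.8 CPM in mEx5 knockdown, against 58.4 and 60.7 CPM in mEx5 control libraries, and 106.8 and 106.7 CPM in pEx5 knockdown, against 93.7 and 100.3 CPM in pEx5 control libraries. Its knockdown change was larger in mEx5 by 0.78 ± 0.09 on the log2 scale (adjusted p = 0.000281), and the libraries that stand apart are the mEx5 controls. The other genes were Htr3a, a serotonin receptor subunit gene, and Capn6, a calpain family gene, and both lost the call in several other fits.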

How the data were processed

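PolyA RNA of mouse N2A cells was sequenced after stranded TruSeq library preparation with long inserts, per the labels' protocols. The members and the gene lists were chosen with earlier results of these data known. PSI was deposited by the authors as a percent per event and library in a vast-tools table, and a second deposited table gives a group PSI, treated here as a score, with true or false calls of no stated criterion. Deposited PSI lay within 0.02 points of the value computed from the reads beside it in 98.89% of cases. RPKM, 1 value per group, together with log2 fold changes and p-values with FDR, were deposited by the authors. The submitters' processing notes name Salmon 0.14.1, edgeR and mm10, with no roles. The assembly of the splicing coordinates is not given in the sources used here, and they are printed as deposited. They should not be read as mm10 (GRCm38) positions. Exon 5 of Puf60, deposited at chr15:75905037-75905087, lies at chr15:76074607-76074657 in GRCm38.

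Events needed at least 10 reads in every library used and a mean PSI from 5 to 95. The log2 ratio of inclusion to exclusion reads (0.5 added to each) was fitted in limma 3.58.1 (R 4.3.3), weighted by read number with a variance floor of 0.01, over all 12 libraries, which share 1 estimate of the spread with 6 residual degrees of freedom. An event was called where p, adjusted by Benjamini and Hochberg over all events, was under 0.05 and PSI differed by at least 10 points. Gene levels came from exon-exon junction reads per gene, scaled by the median of ratios, as log2 CPM with a prior count of 2 and a mean of at least 20 reads, in limma with a trend. All per-library p-values in the text are from these fits, which were tested on simulated data. Named events and genes were those with the largest differences among calls, by type and direction, with at least 20 reads in each library for events and at least 2 RPKM in the higher group and a call on junction reads for genes, and list genes were the called members with the largest changes. Splicing events of list genes were named after their values were seen. Microexons have 3 to 27 nt.

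The letters A and B were not used as pairs in the main fits. The correlation of deviations between the mEx5 groups was 0.162 for gene levels and 0.0252 for PSI. These were the highest of any pair of groups, the lowest being -0.129 and -0.0222, so a weak pairing in gene levels is not excluded. Fits with the letter as a block are given below. Exon sequences came from GENCODE M21 transcripts. Intron sequence was not used here, and some genes and a sequence that the rules name are not reported here. Alternatives covered weights, filters, scaling, the pseudocount, the libraries fitted and leaving out each library.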

Additional observations from a re-analysis of the deposited data

Results flagged for a closer look

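Among all genes tested, 3 had a knockdown change that differed between the mEx5 and pEx5 lines by the limma interaction test. Each line has its own control libraries. For Cth the difference was 0.78 ± 0.09 on the log2 scale, mEx5 minus pEx5 (SE, adjusted p = 0.000281). Its own changes were 0.91 in mEx5 and 0.14 in pEx5, and the call held in every other fit that was run. Htr3a had 37.8 and 40.3 CPM in mEx5 knockdown, against 22.6 and 24.9 CPM in mEx5 control libraries, and 87.4 and 87.9 CPM in pEx5 knockdown, against 79.5 and 84.9 CPM in pEx5 control libraries. The difference was 0.62 ± 0.10 (adjusted p = 0.0219), and it lost the call without mEx5 control library A (adjusted p = 0.317), without mEx5 knockdown library B (0.0649) and with no filter on low reads (0.0896). Capn6 had 46.5 and 44.3 CPM in mEx5 knockdown, against 35.4 and 38.1 CPM in mEx5 control libraries, and 25.05 and 24.6 CPM in pEx5 knockdown, against 31.6 and 32.1 CPM in pEx5 control libraries. The difference was 0.66 ± 0.11 (adjusted p = 0.0384), and the changes had opposite signs, 0.30 in mEx5 and -0.36 in pEx5. It lost the call when any 1 of the 4 mEx5 libraries was left out (adjusted p 0.0649 to 0.459), with scaling to all junction reads (0.0817) and with no filter on low reads (0.159).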

How the results depend on the processing

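No named gene change turned its sign in any alternative run. For the named PSI differences the sign could not turn. They are differences of mean deposited PSI, which the fit settings do not change, and the groups did not overlap in any called event. Alternative 3′ sites, 96 higher and 100 lower, became 99 higher and 96 lower with unweighted limma. The 2697 splicing calls became 1716 with no filter on mean PSI, where 167832 events were tested, and 1707 with 1 event per gene, an alternative chosen after seeing the data. Leaving out 1 library gave 1646 to 2037 calls, and the other alternatives 1811 to 2843. Introns called higher fell to 189 with balanced junctions and to 210 in a fit on the 4 mEx5 libraries alone, where 21 alternative 5′ sites were higher and 6 lower. At 15 points 213 introns, 129 exons, 66 alternative 3′ sites and 27 alternative 5′ sites were higher. The replicate block gave 2682 events and 3684 genes. On junction reads, genes called ranged from 2598 to 3738, and scaling to all junction reads turned 1822 higher and 1895 lower into 2030 higher and 1708 lower. The authors' 5716 genes became 1672 at 1.5-fold. The difference between lines was called for 1 gene with no filter beyond 1 read and for 1 to 2 genes without 1 library. Of 177 named PSI differences 91 kept their call in all alternatives, as did 91 of 110 named gene changes. The edgeR fits, with TMM scaling or the quasi-likelihood test, were not run because no file holds a count unit. With 2 libraries a group, low read numbers limit the named events of few reads most.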

Other observations

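The events named here were chosen after their values were seen. Mitosis genes also had splicing calls, 9 of 40 tested events (22.5%, against 11.8% of all events), in 7 of 14 genes with tested events. A 114-nt exon of Ccna2, which encodes cyclin A2, had PSI of 84.1 and 85.2 in knockdown, against 97.1 and 98.3 in control libraries. An exon of Kif23, a kinesin gene of cytokinesis, was used more, with PSI of 48.3 and 49.9 in knockdown, against 28.5 and 30.9 in control libraries. Tropomyosin genes changed between their 76-nt exons: in Tpm2 1 exon had PSI of 28.8 and 26.6 in knockdown, against 1.23 and 2.93 in control libraries, and the other 74.8 and 77.8 in knockdown, against 99.01 and 97.5 in control libraries. The 59-nt exon of Gnl3, a nucleolar gene, had PSI of 46.5 and 45.98 in knockdown, against 90.7 and 92.2 in control libraries, while the gene's level was higher by 0.20 on the log2 scale.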
